A study of Mus musculus with 12 samples.

Results

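The genes described here carry the lipopolysaccharide (LPS) signal from the macrophage surface to the first branch point inside the cell. They are the co-receptors Cd14 and Ly96, the adaptors Myd88, Ticam1 and Ticam2, the interleukin-1 receptor-associated kinases Irak1, Irak2, Irak3 and Irak4, and the ubiquitin ligase Traf6. They were chosen by name for their place in the pathway, with earlier results of these data known, and they are 10 of the 22243 genes in the deposited table. Levels are in TPM, an abundance scaled for transcript length and for the total of each library. All 10 averaged 1 TPM or more over the libraries and so were among the 8780 genes tested.

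The RNA came from bone marrow-derived macrophages (BM-Mɸs) of 12 mice on a C57Bl/6 background, 6 in each of 2 groups. ErbB4myeKO mice carried LysMCre and floxed ErbB4, which is meant to limit deletion to cells with an active Lyz2 locus, and ErbB4FF mice were their littermates with floxed ErbB4 alone. Each of 6 litters gave 1 mouse of each genotype, and every culture was grown in medium with M-CSF, primed for 16 h with 100 U/mL IFNγ and then kept for 6 h with LPS at 100 ng/mL, the classical or M1 activation. The methods of the study say that mice of both sexes were used and give an age of 8 to 12 wk for purchased C57Bl/6J mice, with none given separately for these littermates, the labels give no sex, and no library without LPS was analysed here, so that the levels below are those of activated cells only.

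CD14 takes up LPS and hands it to MD-2, the product of Ly96, which sits on TLR4 and without which TLR4 does not respond to LPS. At the plasma membrane TLR4 reaches MyD88 through TIRAP, and MyD88 gathers IRAK4 and then IRAK1 and IRAK2 into the Myddosome, from which the signal passes to TRAF6 and on to NF-κB and the MAP kinases. After uptake into endosomes, which needs CD14, TLR4 uses TRAM (Ticam2) to bring in TRIF (Ticam1), the route to IRF3 and interferon-β. IRAK3, also called IRAK-M, is known in macrophages as a brake on this pathway.

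No gene of this group passed a test for genotype. None of the 10 did so at an adjusted p under 0.05, nor at an unadjusted p under 0.05, in a limma fit of log2(TPM + 0.5) that blocked on litter and adjusted over all genes tested (Benjamini-Hochberg). The second threshold was passed by 8.21% of all genes tested (721 of 8780) and the first by 0.0%. The median log2 difference, ErbB4myeKO minus ErbB4FF, was 0.01 over the 10 genes and -0.00 over all genes tested, and 5 of the 10 were on the higher side. No member lay on the same side in all 6 litters, as 4.82% of all genes tested did. The litter test gave another count: 6 of the 10 passed the moderated F-test for litter at an adjusted p under 0.05, against 44.9% of all genes tested, and 0 of the 10 passed without litter 5 or with a stand-in for sex, where 11.1% and 9.53% of all genes tested did.

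**Figure D1:**
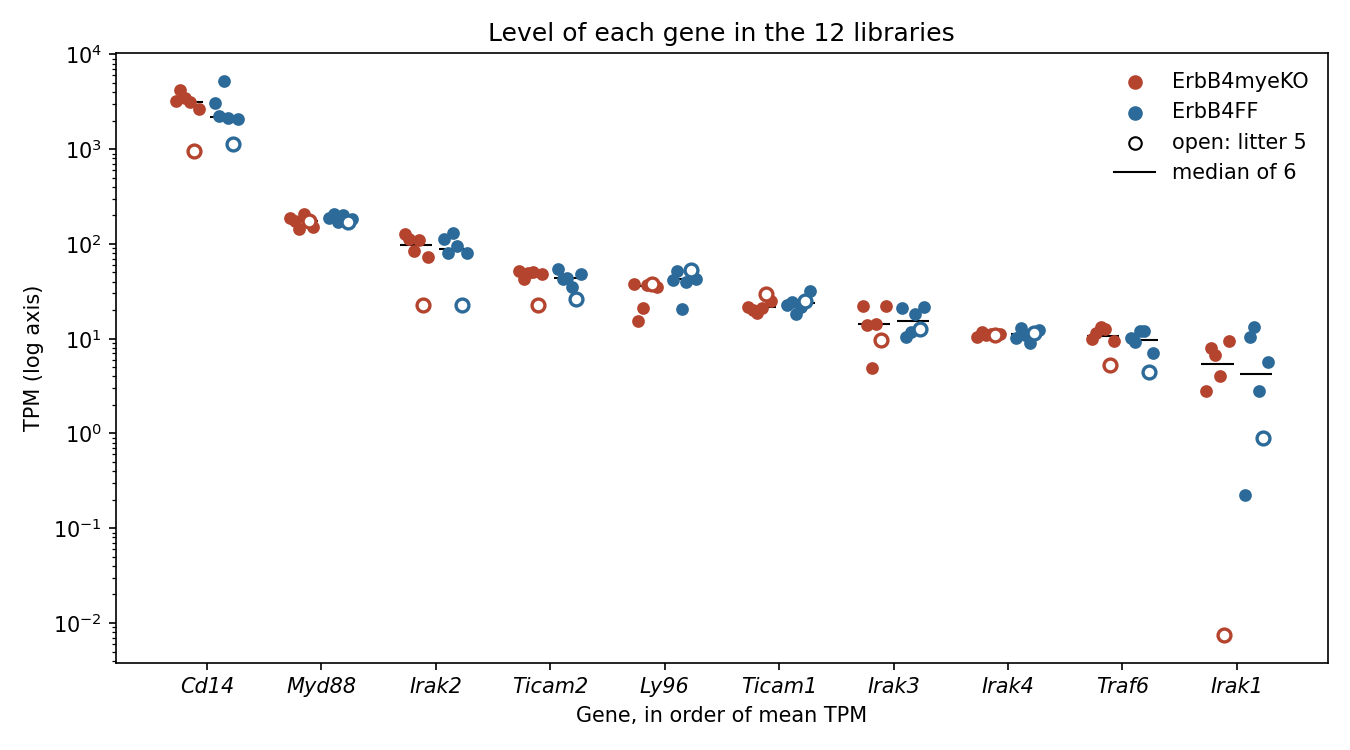
TPM of each gene (log axis) in the 6 ErbB4myeKO and 6 ErbB4FF libraries, with genes in order of their mean, black lines at the median of 6 and open points for litter 5. Cd14 stands above all other members in every library, the colours overlap for every gene, and the open points lie lowest for Cd14, Irak2, Ticam2 and Traf6.

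Since TPM is per length, levels can be ordered between genes, here for the principal transcripts that the table holds. Other annotated transcripts share 100% of the 31-mers of Irak1-204, 98.8% for Irak2, 97.1% for Irak3 and 94.7% for Myd88. The places of these genes thus rest in part on how reads were shared out among isoforms. Cd14 was far above the rest, with a mean of 2795 TPM over the 12 libraries and rank 28 of 8780, followed by Myd88 (179 TPM), Irak2 (87.5), Ticam2 (43.1), Ly96 (36.3), Ticam1 (23.3), Irak3 (15.2), Irak4 (11.1), Traf6 (9.78) and Irak1 (5.35). Only the first 2 steps in this order were free of overlap: Cd14 exceeded Myd88, and Myd88 exceeded Irak2, in 12 of 12 libraries with ranges that did not meet. Every later neighbour overlapped, with the higher gene on top in 8 to 11 of the 12 libraries. The mean of Ticam2 was 1.19 times that of Ly96 and the mean of Irak4 1.13 times that of Traf6, steps smaller than the spread between libraries.

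Cd14 encodes the GPI-anchored LPS co-receptor and lies on chromosome 18 (36725067 to 36726798, minus strand, GRCm38). In ErbB4myeKO libraries it ran from 952 TPM to 4168 TPM with a median of 3177 TPM, and in ErbB4FF libraries from 1130 TPM to 5279 TPM with a median of 2196 TPM. The lowest library of each genotype came from litter 5, the highest ErbB4FF library came from litter 3, and the groups overlapped over most of their range. The log2 difference was 0.16 (SE 0.19, 95% interval -0.28 to 0.60), with ErbB4myeKO higher in 4 of 6 litters and an exact two-sided permutation p over the 64 swaps within litters of 0.469. Within litters it ran from -0.62 in litter 3 to 0.89 in litter 2, and with 1 litter left out the mean ran from 0.018 (without litter 2) to 0.32 (without litter 3).

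Ly96 encodes MD-2, the LPS-binding partner of TLR4 (chromosome 1, 16688051 to 16709611, plus strand). Levels ran from 15.3 TPM to 38.2 TPM in ErbB4myeKO libraries (median 36.1) and from 20.7 TPM to 53.5 TPM in ErbB4FF libraries (median 42.3). The 3 lowest values belonged to litter 2 of ErbB4myeKO and both libraries of litter 3, while the 2 highest were ErbB4FF libraries of litters 2 and 5. Of all members Ly96 had the smallest p for genotype and the largest difference: -0.45 on the log2 scale (SE 0.22, 95% interval -0.97 to 0.06), a ratio of 0.73, lower in 5 of 6 litters, with an exact permutation p of 0.0625 and a limma Benjamini-Hochberg adjusted p of 0.603. Litter 2 carried much of it, with a log2 ratio of -1.73 where the other 5 litters lay between -0.48 and 0.02, and without litter 2 the difference was -0.20. Ly96 has the shortest transcript of the group, 632 bases, and the authors' mean of normalized counts, turned back from the natural log, was 95.7, so few reads stand behind each value. Among the member transcripts with such a mean, only Irak1-204 had a lower one, 59.7.

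CD14 and MD-2 act one after the other on LPS, but their transcripts held no fixed ratio. The ratio of Ly96 to Cd14 TPM was 0.0401 in the ErbB4myeKO and 0.0474 in the ErbB4FF library of litter 5, and between 0.00366 and 0.0232 in the other 10. In that litter Cd14 was low and Ly96 was not.

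Myd88 is the adaptor shared by most Toll-like receptors and the interleukin-1 receptor family (chromosome 9, 119335934 to 119341411, minus strand). It was among the steadiest of the 10, between 145 TPM and 205 TPM in ErbB4myeKO libraries (median 175) and between 169 TPM and 207 TPM in ErbB4FF libraries (median 185), and the highest of the 12 values was 1.43 times the lowest. The ErbB4myeKO libraries of litters 3 and 6 were lower than all ErbB4FF libraries, and the other 4 lay within the ErbB4FF range. The RefSeq start site used for its promoter window (119340018) lies inside this span, near the start of the transcript in the table, Myd88-201 (119340041), while another GENCODE M21 transcript, Myd88-202, starts at 119341411. Of the 31-mers of Myd88-201, 94.7% also occur in other transcripts of the gene. The log2 difference of -0.11 (SE 0.07, 95% interval -0.27 to 0.05) had an exact permutation p of 0.25, with 3 litters on each side. As a ratio the interval ran from 0.83 to 1.04.

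Promoter windows from RefSeq (GRCm38.p6, 250 bases before to 50 after a start site) were matched for 7 of the 10 genes, in 9 windows, and searched on both strands for 9 motifs that had been looked at with the members' matches in view. The letters GGGCGG, an Sp1 motif, were in 8 of the 9 windows, with all 7 genes among them, and in 35.7% of the 32851 windows of all genes. GAGGAA, a PU.1 motif, was in 3 of the 9 windows (of Irak3, Ticam1 and Traf6) and in 28.3% of all windows. The NF-kB consensus (4.51% of all windows), AP-1 as TGACTCA (5.20%), CRE as TGACGTCA (1.79%) and an ETS motif CCGGAAGT (3.89%) were in none of the 9 windows. Myd88 alone held the ISRE core (GAAA, any 2 bases, GAAA; 3.44% of all windows) and the GAS core TTCNNNGAA (8.30%), the letters known from promoters that answer to interferons, and alone held TATAAA (13.6%). Since these cells had been primed with IFNγ, the 100 bases before the Myd88 start site (chr9:119340019-119340118, minus strand) are printed here, with the overlapping GAS core (bases -46 to -38, counting back from the start site) and ISRE core (bases -40 to -31) in capitals. A match of letters is a description and not a binding site.
Myd88 promoter: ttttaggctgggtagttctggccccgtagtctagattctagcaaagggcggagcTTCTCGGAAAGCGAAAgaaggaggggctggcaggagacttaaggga

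Ticam1 encodes TRIF, the adaptor of TLR3 and of endosomal TLR4 (chromosome 17, 56269319 to 56276786, minus strand). Its levels were between 18.5 TPM and 29.5 TPM in ErbB4myeKO libraries (median 21.4) and between 18.2 TPM and 32.1 TPM in ErbB4FF libraries (median 23.5). Here litter 5 was not low, and its ErbB4myeKO library was the highest of that genotype. The log2 difference was -0.08 (SE 0.09, 95% interval -0.30 to 0.14; exact permutation p = 0.344), with ErbB4myeKO lower in 4 of 6 litters. With 1 litter left out the difference ran from -0.14 (without litter 5) to -0.025 (without litter 6). Ticam1 has a single annotated transcript in GENCODE M21, so that its value does not depend on how reads were shared out among isoforms.

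Ticam2 encodes TRAM, which bridges TLR4 and TRIF (chromosome 18, 46557291 to 46574533, minus strand). ErbB4myeKO libraries ran from 22.6 TPM to 52.3 TPM (median 49.3) and ErbB4FF libraries from 26.1 TPM to 53.7 TPM (median 43.3). Both lowest values came from litter 5, and the next lowest was 35.3 TPM. The log2 difference was 0.07 (SE 0.10, 95% interval -0.16 to 0.30; exact permutation p = 0.719), with ErbB4myeKO lower in 3 litters, higher in 2 and level with its littermate in litter 6 (48.6 TPM each). Of its sequence 19.4% of the 31-mers also occur in its neighbour Tmed7, so that reads of the 2 genes were partly shared out by the pseudoalignment. TRAM and TRIF act in sequence, and the ratio of their transcripts differed in litter 5: Ticam2 was 1.51 to 2.70 times Ticam1 in 10 libraries and 0.765 and 1.04 times in the ErbB4myeKO and ErbB4FF libraries of litter 5. The gap was smaller with a trend in transcript length and GC content removed, which is described further on: the mean of litter 5 lay -0.77 for Ticam2 and 0.24 for Ticam1 from the mean of all libraries on the log2 scale, and -0.31 and 0.23 with the trend removed. Set against the other adaptor route, Ticam1 was 0.104 to 0.176 times Myd88 in all 12 libraries.

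**Figure D2:**
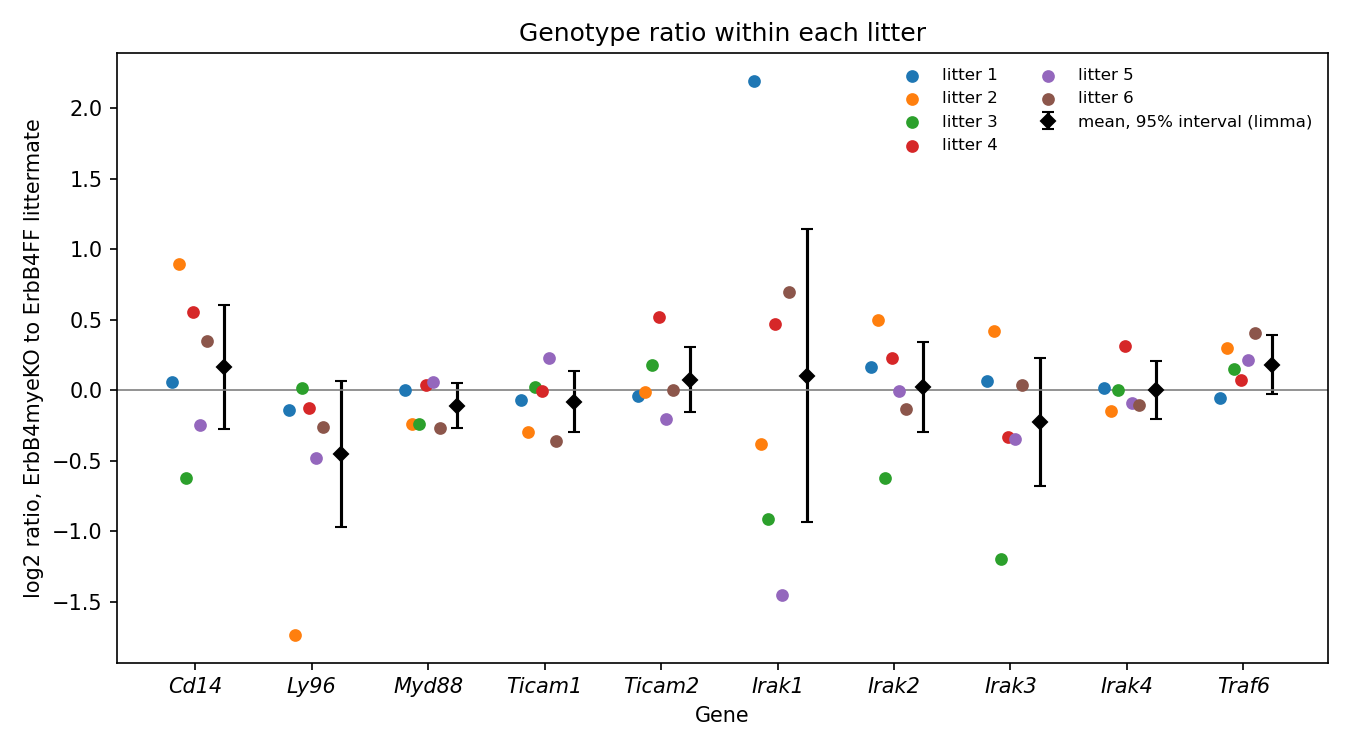
log2 ratio of TPM + 0.5 between the ErbB4myeKO mouse and its ErbB4FF littermate for each gene, with coloured points for the 6 litters and a black diamond with bars for the limma mean and its 95% interval. Every interval spans 0, from a narrow one for Myd88 (-0.27 to 0.05) to a wide one for Irak1 (-0.93 to 1.14).

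Irak4 is the kinase that starts the Myddosome cascade (chromosome 15, 94543643 to 94581815, plus strand). It had the smallest coefficient of variation of all members, with 10.4 TPM to 11.6 TPM in ErbB4myeKO libraries (median 11.1) and 8.94 TPM to 12.9 TPM in ErbB4FF libraries (median 11.2). The range of the ErbB4myeKO libraries lay within that of the ErbB4FF libraries, and the coefficient over all 12 was 9.10%. The log2 difference was -0.00 with an SE of 0.09, and its 95% interval, -0.21 to 0.20, left room for a ratio between 0.87 and 1.15.

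Irak2 is the kinase known to sustain the response after IRAK1 has been degraded, and LPS is known to induce it (chromosome 6, 113638467 to 113695026, plus strand). ErbB4myeKO libraries ran from 22.5 TPM to 127 TPM (median 97.5) and ErbB4FF libraries from 22.5 TPM to 129 TPM (median 87.5). Litter 5 gave the lowest value in both genotypes, and no other library was below 72.3 TPM. The littermates of litter 5 had nearly the same value, and the log2 difference over all litters was 0.02 (SE 0.14, 95% interval -0.30 to 0.34; exact permutation p = 0.875). All but a few of its 31-mers (98.8%) also occur in its other annotated transcripts, which are not among the transcripts of the table.

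Irak3 encodes the inhibitory family member IRAK-M (chromosome 10, 120141648 to 120202130, minus strand). Levels ran from 4.89 TPM to 22.4 TPM in ErbB4myeKO libraries (median 14.1) and from 10.3 TPM to 21.7 TPM in ErbB4FF libraries (median 15.3). The lowest was the ErbB4myeKO library of litter 3, and both libraries of litters 1 and 6 were above 21 TPM. The log2 difference was -0.22 (SE 0.20, 95% interval -0.68 to 0.23; exact permutation p = 0.5), the ratio in litter 3, -1.19, was the farthest from 0, and without litter 3 the difference was -0.03. Of the 31-mers of its transcript 97.1% also occur in other transcripts of the gene. Set against Irak4, Irak3 was between 0.45 and 2.12 times as high over the 12 libraries, with the ratio higher in ErbB4myeKO in 3 of 6 litters.

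Irak1 was the least certain of the 10. Its gene on the X chromosome (74013914 to 74023918, minus strand) has 22 annotated transcripts in GENCODE M21, and the table holds 2 of them, Irak1-202 with a mean of 0.0250 TPM and Irak1-204 with 5.32 TPM. None of the 31-mers of Irak1-204 is its own: 100% also occur in another transcript of the gene, so the pseudoalignment had to share reads out among isoforms and the TPM is the part it gave to this one. One of them, Irak1-206, is not in the table and begins exon 5 with 3 more coding bases, shown in capitals to let a reader see how little sets the isoforms apart there (chrX:74022638-74022872, minus strand, GRCm38), with flanking bases of exons 4 and 5 in lower case.
Irak1-204: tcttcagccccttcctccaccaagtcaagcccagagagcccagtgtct
Irak1-206: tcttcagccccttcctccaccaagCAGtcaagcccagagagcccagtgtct

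Summed over its listed transcripts, Irak1 ran from 0.00749 TPM to 9.45 TPM in ErbB4myeKO libraries (median 5.40) and from 0.222 TPM to 13.2 TPM in ErbB4FF libraries (median 4.20). Near-absent values stood in the ErbB4myeKO library of litter 5 and the ErbB4FF library of litter 1, whose littermates had 0.891 TPM and 2.80 TPM. The litter ratios had an SD of 1.31 on the log2 scale, against a median of 0.32 for the 10 members and 0.34 for all genes tested, and the difference of 0.10 (SE 0.45) had a 95% interval of -0.93 to 1.14, which spans ratios from 0.52 to 2.2. Without litter 1 the difference was -0.32. Irak2 exceeded Irak1 in all 12 libraries, by 7.64 times at the least, but both values rest on how reads were shared among isoforms. The 5 tested genes whose 6 litter ratios lay nearest to those of Irak1 were 1810049J17Rik, Gps1, Rbm39, Snapin and Kdm6a, at root mean square differences of 0.31 to 0.58 on the log2 scale over 6 litters, and all had a mean under 10 TPM.

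Traf6 encodes the ubiquitin ligase that takes the signal from the IRAKs to TAK1 (chromosome 2, 101678429 to 101701669, plus strand). Levels ran from 5.30 TPM to 13.4 TPM in ErbB4myeKO libraries (median 10.7) and from 4.50 TPM to 12.1 TPM in ErbB4FF libraries (median 9.75). The lowest value of each genotype was again that of litter 5. Within litters ErbB4myeKO was higher in 5 of 6, by log2 ratios up to 0.41 in litter 6, with -0.05 in litter 1, for a mean of 0.18 (SE 0.09, 95% interval -0.03 to 0.39). The unadjusted limma p was 0.0801, the Benjamini-Hochberg adjusted p was 0.603 and the exact permutation p was 0.0625, where 0.0312 is the smallest that 6 litters allow.

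At the level of transcripts, 10 of the 11 member transcripts passed the filter on low values and 0 had an unadjusted limma p for genotype under 0.05, beside 6.72% of 10085 transcripts tested.

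The pathway around the 10 genes was described by 48 further genes in 4 lists, of which 42 were tested. ErbB4myeKO was on the higher side for 21 and on the lower side for 21, with a median log2 difference of -0.01. At an unadjusted limma p under 0.05 there were 1 higher and 2 lower genes, 7.14% of the 42 beside the 8.21% of all genes tested, and 0 at a Benjamini-Hochberg adjusted p under 0.05. TLR4 itself, the receptor, had 15.4 ± 4.53 TPM in ErbB4myeKO and 17.1 ± 6.97 TPM in ErbB4FF libraries (SD, n = 6 each), and Tirap, the sorting adaptor for MyD88, had 5.95 ± 2.06 TPM and 5.52 ± 1.67 TPM. In litter 5 Tlr4 had 8.08 and 6.02 TPM in the ErbB4myeKO and ErbB4FF libraries, against at least 11.9 TPM elsewhere. Tirap had 2.55 and 2.52 TPM there, against at least 4.74 TPM, while some other genes of the 42 were not low. In the litter test 23 of the 42 passed at a Benjamini-Hochberg adjusted p under 0.05, beside 44.9% of all genes tested. Without litter 5 it was 6 of the 42, beside 11.1%.

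Of the 3 genes with an unadjusted p under 0.05, Inpp5d and Otulin were listed as negative regulators and Scimp among the other adaptors. Inpp5d, which encodes the lipid phosphatase SHIP1, had 3.59 ± 2.62 TPM in ErbB4myeKO and 1.93 ± 2.30 TPM in ErbB4FF libraries (log2 difference 1.10, SE 0.33, limma unadjusted p = 0.0109; exact permutation p = 0.0625), higher in 5 of 6 litters. Its ErbB4FF library of litter 5 was at 3.41e-07 TPM, and the lowest value outside litter 5 was 9.46e-05 TPM. At such values the log2 ratio rests in part on the pseudocount of 0.5. Scimp, a TLR4-bound transmembrane adaptor, had 52.3 ± 27.0 TPM and 80.1 ± 47.3 TPM (-0.53, SE 0.20, limma unadjusted p = 0.0318; exact permutation p = 0.0625), lower in 5 of 6. Otulin, a deubiquitinase for linear chains, had 27.4 ± 8.28 TPM and 32.7 ± 5.66 TPM (-0.29, SE 0.11, limma unadjusted p = 0.0370; exact permutation p = 0.0938), also lower in 5 of 6. All 3 had a limma Benjamini-Hochberg adjusted p of 0.603, and their groups overlapped.

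Whether a gene differed between litters more than between littermates was asked with the moderated F-test on the 5 litter coefficients of the same limma fit. In order of Benjamini-Hochberg adjusted p, Irak2 (0.00175), Traf6 (0.00367), Ticam2 (0.0112), Cd14 (0.0166), Irak1 (0.0239) and Irak3 (0.0407) passed. Ticam1 (0.0782), Myd88 (0.179), Ly96 (0.211) and Irak4 (0.546) did not. Litter held a median of 81.7% of the sum of squares between libraries for the 10 genes and 78.1% for all genes tested, from 49.7% for Ly96 to 95.5% for Irak2. With so few libraries per litter, such a share lies well above 0 even where litters do not differ. Ly96 had an unadjusted p of 0.155 in the F-test. The labels give each litter its own batch letter, so litter and batch cannot be told apart.

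Without the 2 libraries of litter 5, 0 of the 10 members passed at the adjusted threshold and 11.1% of all genes tested did, but the members differed in how far F moved. It went from 28.2 to 1.84 for Irak2, from 19.1 to 4.69 for Traf6, from 10.8 to 1.48 for Ticam2 and from 9.004 to 1.95 for Cd14. For Irak1 it went from 7.55 to 5.76 and for Irak3 from 5.78 to 5.83, where the limma unadjusted p was 0.0254 and 0.0247 and the Benjamini-Hochberg adjusted p 0.0998 and 0.0981. Irak3 also did not pass without litter 1, 4 or 6, without the trend of the limma variance (Benjamini-Hochberg adjusted p = 0.0562) or with the highest transcript alone (0.05002), and Irak1 did not with a pseudocount of 0.1 (0.0545).

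With a stand-in for sex from Y-linked genes in the fit, 0 of the 10 members and 9.53% of all genes tested passed the litter test, and the lowest Benjamini-Hochberg adjusted p of a member was 0.0523, for Irak2. With no filter on low values 3 of the 10 passed (Traf6, Ticam2 and Irak2), beside 21.7% of all genes.

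In litter 5 the mean of the littermates lay -1.75 from the mean of all 12 libraries for Irak2 on the log2 scale. This distance was -1.28 for Cd14, -0.87 for Traf6, -0.77 for Ticam2, -0.34 for Irak3 and -2.23 for Irak1. Ly96 stood at 0.40, Ticam1 at 0.24, Irak4 at 0.02 and Myd88 at -0.05. Fewer cells of a type and less RNA per cell cannot be told apart in such bulk samples.

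**Figure D3:**
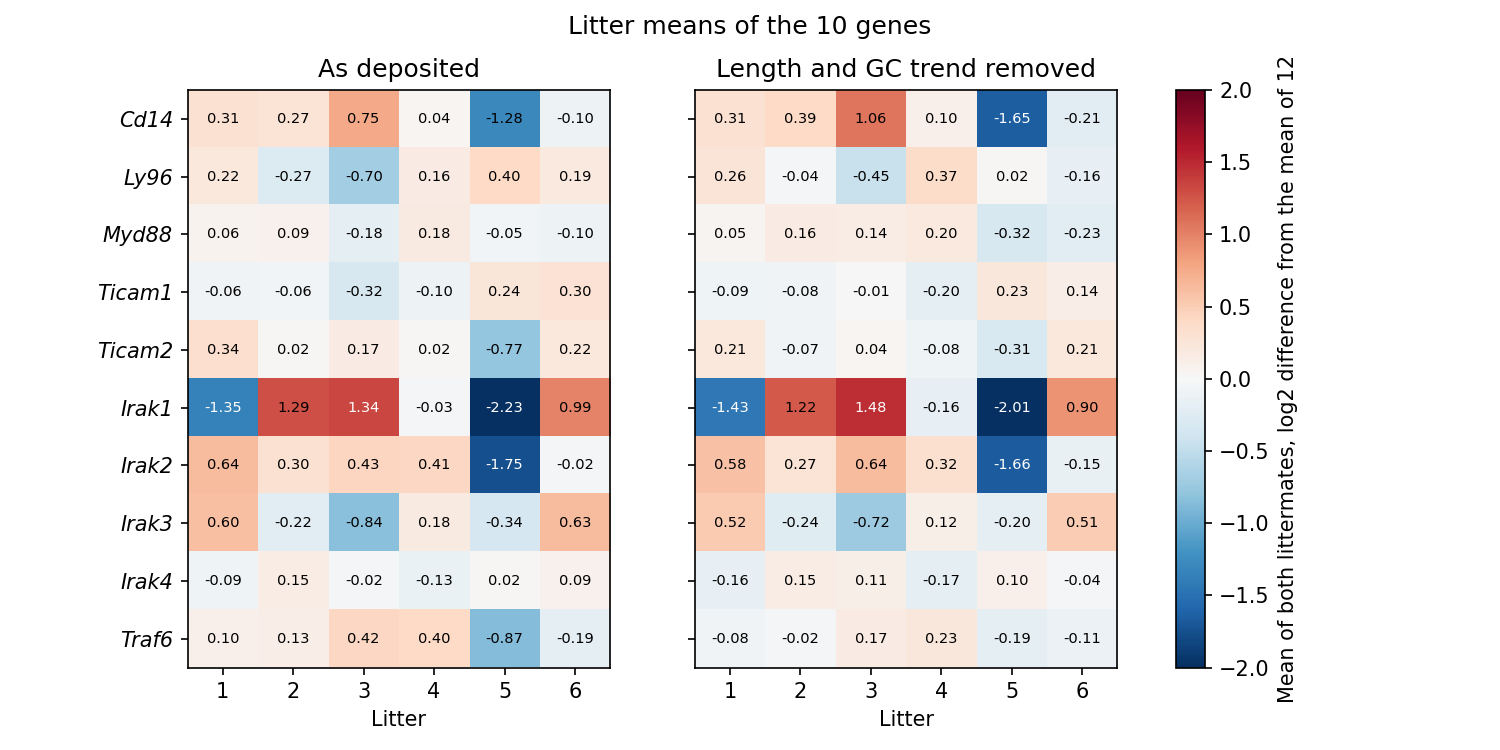
Mean of both littermates for each gene (rows) and litter (columns), as the log2 difference from the mean of 12 libraries, for TPM as deposited (left) and after the trend with transcript length and GC content was taken away (right). Litter 5 is the darkest blue column for Irak1, Irak2 and Cd14 in both panels, and pales for Traf6 and Ticam2 in the right panel.

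In litter 5 the whole table followed transcript length. The 1756 shortest of all genes tested (up to 1502 bases) had a median 0.60 and 0.61 above the mean of each gene in its ErbB4myeKO and ErbB4FF libraries, on the log2 scale, and the 1756 longest (from 4518 bases) a median of -0.52 and -0.56. In the other 10 libraries these medians lay between -0.35 and 0.22 and between -0.14 and 0.24. The principal transcripts also held 71.4% and 74.7% of all TPM in litter 5, against 59.0% to 64.9% elsewhere. Traf6 (6169 bases) and Ticam2 (4204 bases) are the longest members and Ly96 (632 bases) the shortest.

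A smooth trend with length and GC content was therefore taken from each library, an alternative chosen after the data had been seen. With it 4 of the 10 members passed the litter test, against 35.7% of all genes tested: Irak2 (limma Benjamini-Hochberg adjusted p = 0.0023), Cd14 (0.00643), Myd88 (0.0217) and Irak1 (0.0341). In litter 5 Irak2 then stood -1.66 from its mean and Cd14 -1.65. Traf6 came to -0.19 (adjusted p = 0.130) and Ticam2 to -0.31 (adjusted p = 0.178), Ly96 to 0.02, and Irak3 reached an adjusted p of 0.0693. With the trend removed and litter 5 left out together, 0 of the 10 passed, beside 10.7% of all genes tested.

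**Figure D4:**
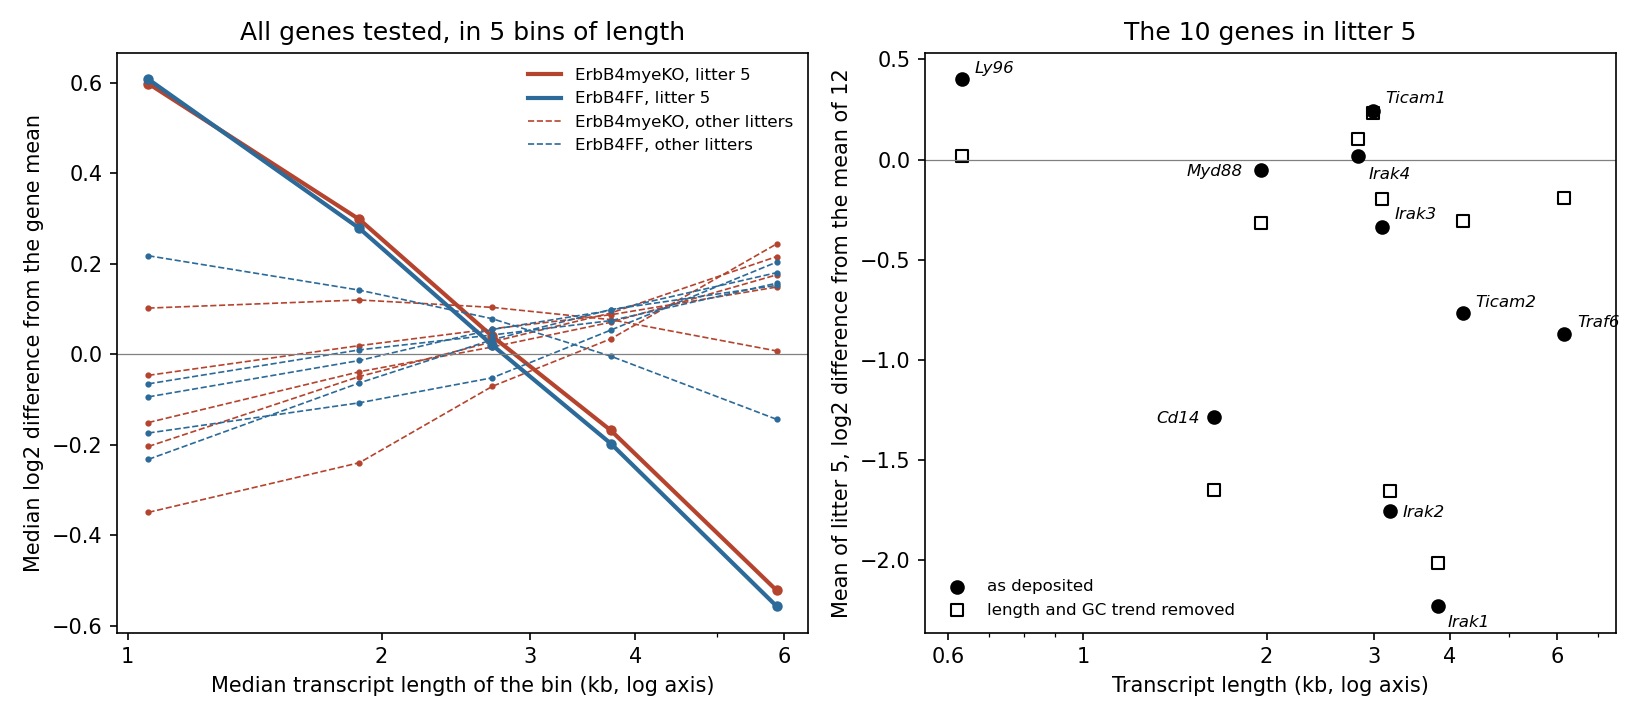
Left, median log2 difference from the gene mean in 5 bins of 1756 genes by transcript length (kb, log axis), 1 line per library, with the 2 libraries of litter 5 as thick solid lines that go from 0.60 and 0.61 down to -0.52 and -0.56. Right, mean of litter 5 for each of the 10 genes against transcript length, as deposited (filled circles) and with the length and GC trend removed (open squares), where Cd14, Irak1 and Irak2 are at -1.65 or lower with the trend removed and Traf6 and Ticam2 at -0.19 and -0.31.

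Other measures moved with litter 5 as well. Il12b, an M1 cytokine gene, had 417 and 405 TPM in its ErbB4myeKO and ErbB4FF libraries and 639.5 TPM or more in the other 10, whereas Tnf, at 1429 and 1391 TPM, lay within the range of the others (794 to 5576 TPM). Of the 6 M1 genes listed, Il12b and Il1b (2086 and 3366 TPM, 5200.3 TPM or more elsewhere) were below all other libraries in both libraries of litter 5, and Cxcl10 (3256 and 3448 TPM, at most 2952 TPM elsewhere) was above them. The sum of the 6 was 7579 and 9161 TPM in litter 5, the lowest of each genotype. Of the 8 macrophage markers 3 were below all others in both, Adgre1 (686 and 662 TPM against at least 830 TPM), Csf1r (200.05 and 168 TPM against at least 298 TPM) and Mertk (36.02 and 35.4 TPM against at least 45.4 TPM), and 5 were not. Among these 5, Cd68 was at 418 and 338 TPM in a range of 314 to 571 TPM, and Lyz2 was at 7563 and 13257 TPM with at most 10336 TPM elsewhere. Of the 10 neutrophil markers 3 were above all others in both, Camp (10.5 and 5.87 TPM, at most 4.96 TPM elsewhere), Ngp (18.4 and 16.4 TPM, at most 10.9 TPM) and Ltf (1.57 and 0.716 TPM, at most 0.611 TPM). Which of the listed markers to name was chosen after their values had been seen. The summed level of 10 neutrophil markers, of which 4 averaged 1 TPM or more and Retnlg was at 0 throughout, was 215 and 185 TPM in litter 5, in ranges of 39.7 to 371 TPM over ErbB4myeKO and 40.1 to 185 TPM over ErbB4FF libraries. Sums of 8 dendritic cell markers (3 averaging 1 TPM or more) were 44.7 to 122 TPM and 30.9 to 94.0 TPM, with Dpp4 above all others in both libraries of litter 5 (0.480 and 0.809 TPM, at most 0.385 TPM elsewhere), and those of 8 lymphocyte markers were at most 0.886 TPM in any library. Sums of the 8 macrophage markers were 4982 to 9864 TPM and 5091 to 14839 TPM, all 8 present, with 9217 and 14839 TPM in litter 5. The part of these measures in the levels of Cd14, Irak2 and the other members was not tested.

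The labels could not be checked through the targeted gene. Erbb4 was at 0.583 ± 0.242 TPM in ErbB4myeKO and 0.450 ± 0.132 TPM in ErbB4FF libraries (SD, n = 6 each), between 0.280 and 0.852 TPM throughout, and a sum over the transcript need not show the loss of a floxed exon. Lyz2, the locus that carries LysMCre, had 5305 ± 1985 TPM and 8277 ± 3445 TPM and was lower in ErbB4myeKO in 5 of 6 litters. Of the 6 M1 genes, ErbB4myeKO was on the higher side in 6 of 6 litters for Tnf and Il12b, in 5 for Il6, in 4 for Il1b, in 1 for Nos2 and in 0 for Cxcl10, where 4.82% of all genes tested lay on 1 side in all 6 litters. Nos2 was at 0 TPM in both libraries of litter 5, a tie, and its lowest value elsewhere was also 0 TPM. Its levels were 20.8 ± 46.1 TPM in ErbB4myeKO and 41.0 ± 53.7 TPM in ErbB4FF libraries. The levels were 2721 ± 1662 and 2053 ± 1638 TPM for Tnf and 5038 ± 3315 and 2908 ± 3407 TPM for Il12b, in ErbB4myeKO and ErbB4FF libraries (SD, n = 6 each).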

How the data were processed

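RNA was sequenced from M1-activated BM-Mɸs of 6 ErbB4myeKO mice and 6 ErbB4FF littermates as single-ended reads of 75 bp. Per the labels and methods, the authors called bases with CASAVA, pseudoaligned the reads to the mouse transcriptome (mm10) with kallisto and deposited TPM of the transcripts that APPRIS marks as principal, 28808 transcripts of 22243 genes after 405 repeated lines were counted once. Versions and the transcriptome release are not given in the sources used here. The authors also deposited the mean natural log of normalized estimated counts per transcript over all libraries, which was used as the guide to depth, since TPM carry none and the methods state only an approximate number of reads common to all libraries. Another 11 columns hold the authors' own comparison and were not used.

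After summing over the transcripts of a gene, log2(TPM + 0.5) of each gene averaging 1 TPM or more went into limma 3.58.1 (R 4.3.3; lmFit, then eBayes using trend), which blocked on litter. Fold changes are on this log2(TPM + 0.5) scale, which understates changes of low genes. Adjusted p-values are Benjamini-Hochberg over all genes tested, the threshold was 0.05, and tests were two-sided. Mean log2 ratios were also tested by exact permutation over the 64 within-litter swaps. The fit was tested on simulated data. Other steps used Python 3.11.15 (scipy 1.17.1, numpy 2.4.6, matplotlib 3.10.9, pandas 2.3.3). Littermates share a number in the labels, and the series design pairs them by litter. Their deviations from the group means correlated between 0.273 and 0.774 across genes in the 6 litters.

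Lengths, positions and 31-mers came from GENCODE M21 (GRCm38), in which all 28808 transcripts were found when the version of the identifier was ignored. The members and lists were chosen with earlier results of these data known. Named are all members, pathway genes with an unadjusted p under 0.05, Tlr4 and Tirap, the 5 genes nearest to the member with the most variable litter ratios, and Erbb4, Lyz2, Tnf and Il12b as checks. Markers come from fixed cell type lists, with those named chosen after their values were seen, and Tmed7 is named for sequence shared with Ticam2. Sex was not adjusted for, since the labels give none, although the study did so. Alternatives were no block, a stand-in for sex from Y-linked genes, pseudocounts of 0.1 and 1, no filter, a minimum mean of 5 TPM, median ratios, no trend, the highest transcript alone and each litter left out.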

Additional observations from a re-analysis of the deposited data

Results flagged for a closer look

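For each of the 10 genes, the 6 ErbB4myeKO levels, the 6 ErbB4FF levels and the 6 litter ratios were examined on the log2 scale for a value far from the others, taken as a gap to its neighbour that, as a share of the range, exceeded Dixon's 95% value for 6 samples. Chance gives about 1 in 20 groups such a value, and 8 of 30 groups had one.

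Of these 8, 5 are low levels in libraries of litter 5. In its ErbB4myeKO library they were Cd14 at 952 TPM (next lowest 2664 TPM), Ticam2 at 22.6 TPM (next 42.1 TPM), Irak1 at 0.00749 TPM (next 2.80 TPM) and Irak2 at 22.5 TPM (next 72.3 TPM). In its ErbB4FF library it was Irak2 at 22.5 TPM (next 79.6 TPM).

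The others were scattered. Ly96 had 20.7 TPM in the ErbB4FF library of litter 3 (next lowest 40.03 TPM) and a log2 ratio of -1.73 in litter 2 (next -0.48). Irak4 had a log2 ratio of 0.31 in litter 4 (next 0.02).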

How the results depend on the processing

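No member passed for genotype under any of 17 alternatives, either at an unadjusted or at an adjusted p under 0.05 (limma, Benjamini-Hochberg). Without the replicate block, that is with littermates not paired, 75 genes and 110 transcripts had an unadjusted p under 0.05 in place of 721 and 678. With each litter left out these counts ran from 410 to 860 genes and from 424 to 829 transcripts, the lowest without litter 2, and genes with an adjusted p under 0.05 from 0 to 1. The litter test, passed by 3938 genes and 6 members, gave 837 genes and 0 members with the stand-in for sex, 3446 genes and 3 members with no filter, 976 to 4076 genes and 0 to 7 members with each litter left out, and 937 genes and 0 members with the length and GC trend removed and litter 5 left out. Its 7 members without litter 2 included Ly96 (adjusted p = 0.00625), Irak3 did not pass without litter 1, 4 or 6, without the limma trend or with the highest transcript alone, and Irak1 did not with a pseudocount of 0.1. The cause was not tested.

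Signs of small differences turned. Irak1 became -0.020 with a pseudocount of 0.1 and ran from -0.32 to 0.41 with each litter left out, Irak2 from -0.073 to 0.15, Irak4 from -0.064 to 0.028 and Ticam2 from -0.015 to 0.13. The other 6 members kept their sign. All mean levels moved by less than 1 SD under median ratios. The depth of each library is not in the files, and the methods give only an approximate one for all, so no counting interval can be given, and values under about 1 TPM, as for Irak1 and Erbb4, are the least secure. Litter 3 had the fewest genes above 0 TPM, 10214 in its ErbB4myeKO and 10910 in its ErbB4FF library, against 11645 to 12985 elsewhere. The part of this in the values of litter 3 was not tested.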
